A study of Mus musculus with 4 samples.

Results

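Mast cell proteases and receptors were examined in mouse liver tumors in which p53 had been switched back on or was still suppressed. The set held 10 genes, picked by symbol: the granule proteases Tpsab1, Tpsb2, Cma1, Cpa3 and Mcpt4, the receptors Kit, Ms4a2 and Fcer1a, the enzyme gene Hdc and the transcription factor gene Gata2. All 10 were measured, by 15 probe sets annotated to exactly 1 of these symbols, among 18193 genes with such a probe set. The genes had been chosen with their difference between the groups already known, so that difference and the gaps between replicates are given for them as a description. No p-value is given for them, and nothing is drawn from how many pass a threshold.

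The 4 samples were of tumors formed by transplanted liver progenitor cells (LPC), which can mature into hepatocytes or bile duct cells, in the livers of recipient mice. The tumors were driven by HrasV12, an oncogenic RAS, and carried a tet-off short hairpin RNA against p53, which is made until doxycycline is given. In the 2 p53 on samples doxycycline had been given in the chow for 8 days. In the 2 p53 off samples it had been given for 0 days. Strain, sex and age of the mice were not given, and no sample had doxycycline without the hairpin, so effects of p53, of doxycycline and of 8 days of time cannot be told apart. The labels do not say that replicates were separate animals, so each p-value covers just the spread among these 4 arrays, and that spread may be technical.

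Mast cells are tissue-resident immune cells that store proteases, histamine and heparin in granules and release them when IgE bound to its receptor is crosslinked. Mouse mast cells are usually split into a connective tissue type, with the tryptases Tpsab1 (mMCP-7) and Tpsb2 (mMCP-6), the chymases Cma1 (mMCP-5) and Mcpt4 and the carboxypeptidase Cpa3, and a mucosal type of gut and airway epithelium, with the chymases Mcpt1 and Mcpt2. Their growth depends on the receptor Kit and its ligand, and on the transcription factors Gata2 and Mitf.

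The values are log2 signals made by RMA, a method that corrects background, normalizes arrays and sums the probes of a probe set, with 1 sample per array. RMA gives no detection call, so 44 probe sets of olfactory receptors, which liver tumors are not known to make, were used to show how dim probe sets look. Their median lay between 6.23 and 6.503 and their 95th percentile between 7.45 and 7.73 over the 4 arrays. Array medians were 7.39 and 7.39 in p53 on and 7.34 and 7.29 in p53 off. The difference between 3' and 5' control probe sets of beta-actin, a sign of RNA quality, was 0.48 and 0.49 in p53 on and 0.39 and 0.26 in p53 off. It moved with the groups, and its part in the results below was not tested. Of the tumor markers, Krt8, Krt18 and Krt19 had values of 10.81 or more on every array, while the albumin gene Alb stayed between 6.96 and 7.39, within the olfactory range.

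All 5 granule protease genes were higher in p53 on, by 2.81-fold to 6.89-fold. In each of them both p53 on arrays lay above both p53 off arrays, as in 36.3% of all genes. The tryptase gene Tpsab1 had log2 values of 10.89 and 11.76 in p53 on, against 9.10 and 7.98 in p53 off. The difference was 2.79 ± 0.44 (standard error, SE, from limma, n = 2 against 2; 6.89-fold). Its replicates differed by 0.87 in p53 on and by 1.12 in p53 off. Tpsb2, the other tryptase, had 9.41 and 10.24 in p53 on, against 7.49 and 6.98 in p53 off, a difference of 2.59 ± 0.30 (6.01-fold). Its p53 off values lay within the range of olfactory receptor probe sets, so its fold may be compressed. A second Tpsb2 probe set showed nothing of the kind: it had 6.66 and 6.66 in p53 on and 6.58 and 6.53 in p53 off, within the olfactory range on all arrays. The tryptases are close paralogs, so signal from 1 of them may reach the probe set of the other.

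Cma1, the chymase named mMCP-5, had 9.95 and 11.06 in p53 on, against 8.37 and 7.25 in p53 off. The difference was 2.70 ± 0.48 (6.48-fold), with the largest SE of the 10 genes, and p53 off replicate 2 was within the olfactory range. The mast cell carboxypeptidase gene Cpa3, whose product is stored in the granule together with Cma1, had 10.77 and 11.43 in p53 on, against 8.94 and 8.19 in p53 off. Its difference was 2.53 ± 0.31 (5.79-fold), and every array was above the olfactory range. The chymase gene Mcpt4 had 9.60 and 10.45 in p53 on, against 8.75 and 8.32 in p53 off, a difference of 1.49 ± 0.30 (2.81-fold). It was the lowest of the 5 protease differences. Leaving out p53 on replicate 2 put it at 1.06 and leaving out p53 on replicate 1 at 1.92.

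**Figure D1:**
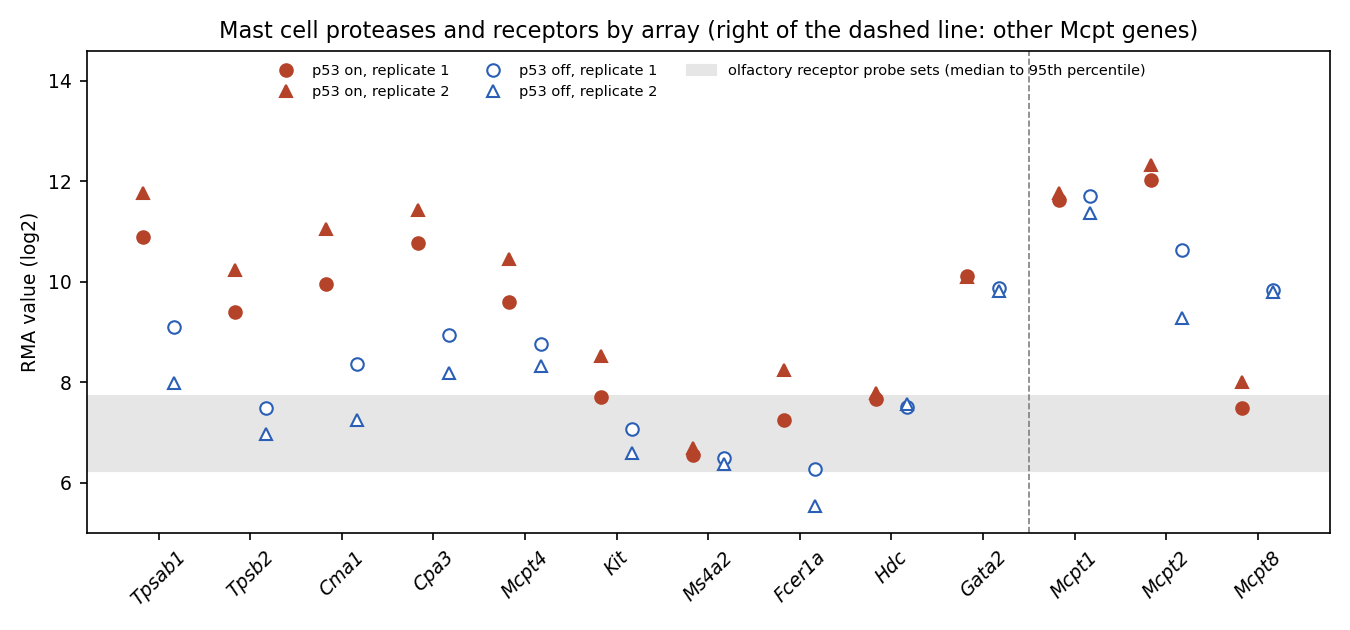
RMA values (log2, vertical axis) of the 10 mast cell genes and of Mcpt1, Mcpt2 and Mcpt8, 1 symbol per array, with p53 on (filled) left of p53 off (open) for each gene. The grey band runs from the lowest median to the highest 95th percentile of olfactory receptor probe sets, 6.23 to 7.73. The proteases Tpsab1, Tpsb2, Cma1, Cpa3 and Mcpt4 separate by group, whereas Ms4a2 stays inside the band and Mcpt1 has 11.38 or more on all arrays.

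Signals of the receptor genes lay partly within the olfactory range. Fcer1a encodes the chain of the IgE receptor that binds IgE, and had 7.26 and 8.24 in p53 on, against 6.28 and 5.55 in p53 off. The difference was 1.83 ± 0.38 (3.57-fold), and only p53 on replicate 2 was above the olfactory range, so its fold may be compressed. Ms4a2 encodes the signal-amplifying beta chain of the same receptor. Its brighter probe set had 6.56 and 6.70 in p53 on and 6.49 and 6.38 in p53 off (0.20 ± 0.088), and the other had 6.34 and 6.52 in p53 on and 6.002 and 5.95 in p53 off, a difference of 0.45. Both were within the olfactory range on every array, so a change of Ms4a2 could hardly be seen here. Kit, the receptor for stem cell factor, had 7.72 and 8.52 in p53 on, against 7.07 and 6.59 in p53 off, a difference of 1.29 ± 0.29 (2.44-fold), with only p53 on replicate 2 above the olfactory range, so this fold too may be compressed. Its second probe set was at 5.59 and 5.69 in p53 on and 5.66 and 5.62 in p53 off, at the low end of the array, and the mean of both probe sets differed by 0.64.

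Hdc, whose product makes histamine, had 7.67 and 7.78 in p53 on and 7.52 and 7.58 in p53 off, a difference of 0.18 ± 0.080. Its dimmer probe set had 6.47 and 6.47 in p53 on and 6.03 and 5.94 in p53 off, a difference of 0.49, within the olfactory range throughout. Gata2 had 10.11 and 10.09 in p53 on, against 9.88 and 9.82 in p53 off. The difference was 0.25 ± 0.072 (1.19-fold), and 0.19 in its second probe set. Gata2 is also made by endothelial cells and blood progenitors, and Kit by blood progenitors and melanocytes. In either gene both p53 on arrays were above both p53 off arrays, as in 36.3% of all genes, but the Gata2 difference was well under those of the proteases.

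As a description, 7 of the 10 genes lay past a limma adjusted p of 0.05 in the higher direction (the 5 proteases, Kit and Fcer1a), beside 14.0% of all genes, and 0 lay past it in the lower direction, beside 14.7% (28.7% in either direction). Without p53 off replicate 2 fewer lay past it in the higher direction, both of the 10 and of all genes. In all 10 both p53 on arrays were above both p53 off arrays, as in 36.3% of all genes, and 30.4% of all genes had both p53 on arrays below. A difference of at least 1 was seen in 7 of the 10 and in 2.94% of all genes. The median difference of the 10 genes was 1.66, against 0.023 over all genes. Nothing is read from these counts, since the same contrast was known when the genes were chosen.

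The 2 mucosal chymases differed from each other in their values. Mcpt2, a chymase of mucosal mast cells, rose to 12.03 and 12.32 in p53 on, against 10.63 and 9.29 in p53 off. The difference was 2.22 ± 0.42 (4.65-fold; limma adjusted p = 0.0144), close in size to those of the connective tissue proteases. Its p53 off arrays differed by 1.34 from each other, and with the trend and robust version of eBayes the call was lost (adjusted p = 0.0715; 0.00474 to 0.0715 over the alternatives). Without p53 off replicate 2 the difference was 1.55 and without p53 off replicate 1 it was 2.89. Mcpt1, the other mucosal chymase, had 11.63 and 11.77 in p53 on and 11.70 and 11.38 in p53 off. Its difference of 0.16 ± 0.13 did not pass (limma adjusted p = 0.414), and the 95% interval ran from -0.16 to 0.49. That interval lies below the 2.22 of Mcpt2, although the 2 genes were not tested against each other. Itgae, the integrin chain CD103 found on mucosal mast cells and on many T cells, did not pass either (0.094 ± 0.15; limma adjusted p = 0.69), and its brightest probe set was within the olfactory range. Of the mucosal genes, 1 of 3 measured rose in p53 on and 0 fell, beside 14.0% and 14.7% of all genes. Mcpt9 was not measured.

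Mcpt8, a protease of basophils, went the other way. It fell to 7.48 and 8.00 in p53 on, against 9.84 and 9.79 in p53 off, a difference of -2.07 ± 0.17 (4.21-fold lower; limma adjusted p = 0.00128). Its p53 on replicate 1 was within the olfactory range, so this fold may be compressed. The difference lay between -2.33 and -1.81 over all alternatives. Of the other basophil genes, the interleukin 3 receptor chain Il3ra rose by 0.37 ± 0.086 (limma adjusted p = 0.0277), a call lost without p53 off replicate 1 (0.128), without p53 off replicate 2 (0.131), without p53 on replicate 2 (0.0742) with the crossed block (0.0644) and with arrays centred on their medians (0.055), in a range of 0.0107 to 0.131. Cd200r3, a basophil receptor, did not pass (0.25 ± 0.083; adjusted p = 0.0782) and was within the olfactory range. Prss34 was not measured. Of the eosinophil markers, the interleukin 5 receptor gene Il5ra fell by 1.46 ± 0.12 (limma adjusted p = 0.00126). Its p53 on values, 7.41 and 7.36, lay within the olfactory range, so its fold may be compressed. The other 4 of 5 measured eosinophil markers, Prg2, Epx, Siglecf and Ccr3, were within that range on every array.

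**Figure D2:**
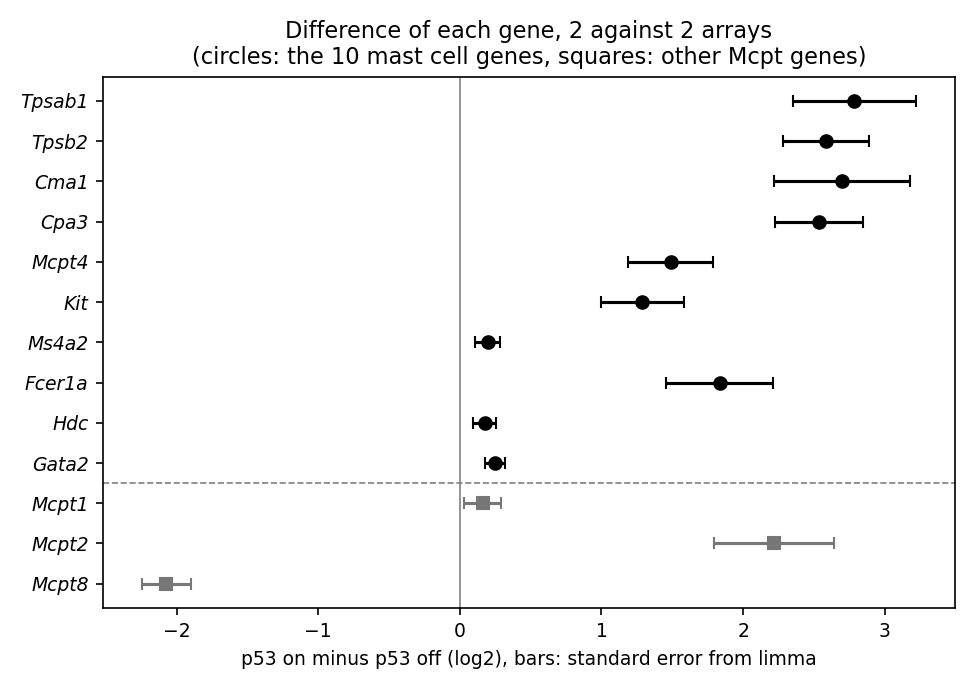
Difference between p53 on and p53 off (log2, horizontal axis; bars are limma SEs, n = 2 against 2 arrays) for the 10 mast cell genes (circles) and Mcpt1, Mcpt2 and Mcpt8 (squares). The connective tissue proteases lie between 1.49 and 2.79, Mcpt2 at 2.22, Mcpt1 at 0.16 and Mcpt8 at -2.07.

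Several of these proteases lie close together in the genome, in the chymase locus of chromosome 14. Of its 15 protein-coding genes from Cma1 to Gzmb in RefSeq, 13 were measured. In their order along the chromosome, the differences were 2.70 for Cma1, 0.16 for Mcpt1, 2.22 for Mcpt2, 1.49 for Mcpt4 and -2.07 for Mcpt8. Higher and lower genes and 1 that was not called thus lay side by side in the locus. The 8 genes that follow Mcpt8 are the neutrophil and mast cell protease gene Ctsg and 7 granzymes. With limma 0 of them passed in either direction, beside 28.7% of all genes. An unadjusted p under 0.05 was found in 0 of them, and no share of all genes is given for it. Their differences were 0.36 for Ctsg, -0.23 for Gzme, 0.75 for Gzmd and 0.98 ± 0.67 for Gzmg. Further along they were 0.061 for Gzmn, 1.27 ± 0.62 for Gzmf, 0.15 for Gzmc and 0.64 ± 0.32 for Gzmb. With SEs as wide as those of Gzmg, Gzmf and Gzmb, not passing does not show that a gene was unchanged. Genes of this locus are close paralogs, so signal from 1 of them may reach the probe set of another.

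The 250 bases before the start of transcription are shown for Cpa3, Cma1 and Mcpt4, which were higher in p53 on, and for Mcpt1, which was not called, because they let Mcpt4 and Mcpt1 of the same locus be compared. Sequences are from RefSeq (GRCm38.p6), run 5′ to 3′ on the gene's own strand, and carry in capitals each match to GATAA or its reverse complement TTATC, the core that GATA factors such as Gata2 bind.
Cpa3 (chr3:20242182-20242431, minus strand): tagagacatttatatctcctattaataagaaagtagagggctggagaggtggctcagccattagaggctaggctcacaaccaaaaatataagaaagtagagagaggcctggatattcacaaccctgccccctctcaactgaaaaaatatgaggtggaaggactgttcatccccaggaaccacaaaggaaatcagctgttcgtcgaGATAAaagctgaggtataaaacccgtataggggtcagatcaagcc
Cma1 (chr14:55944676-55944925, minus strand): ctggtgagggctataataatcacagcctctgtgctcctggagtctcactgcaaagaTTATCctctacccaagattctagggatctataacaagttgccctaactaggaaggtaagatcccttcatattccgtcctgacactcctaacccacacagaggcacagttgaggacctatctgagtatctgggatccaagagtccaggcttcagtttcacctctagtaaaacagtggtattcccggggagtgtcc
Mcpt4 (chr14:56062311-56062560, minus strand): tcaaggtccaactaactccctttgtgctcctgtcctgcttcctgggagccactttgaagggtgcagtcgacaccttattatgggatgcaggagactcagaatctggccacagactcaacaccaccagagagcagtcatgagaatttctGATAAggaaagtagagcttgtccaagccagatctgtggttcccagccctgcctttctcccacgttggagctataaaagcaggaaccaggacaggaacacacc
Mcpt1 (chr14:56017714-56017963, plus strand): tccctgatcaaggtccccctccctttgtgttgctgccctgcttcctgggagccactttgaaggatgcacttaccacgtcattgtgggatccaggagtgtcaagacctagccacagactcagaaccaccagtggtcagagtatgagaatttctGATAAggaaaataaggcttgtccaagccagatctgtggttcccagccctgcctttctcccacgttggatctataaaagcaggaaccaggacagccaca
Each of the 4 holds 1 match, which begins at -45 in Cpa3, -194 in Cma1, -102 in Mcpt4 and -98 in Mcpt1, counted from the start of transcription. Promoters of 8 of the 10 genes were matched by symbol, with 10 windows in all. Counted by gene, 5 of the 8 (Cma1, Cpa3, Mcpt4, Ms4a2 and Fcer1a) held the motif in any window. Counted by window, it stood in 22.6% of 32851 promoter windows of the same length. The window of Mcpt8, which was lower in p53 on, held 0 matches. CATGTG and its reverse complement CACATG, an E-box form that Mitf binds, stood in 1 of the 8, that of Fcer1a, and in 12.3% of all windows. The promoters of Mcpt4 and Mcpt1 shared 213 of 250 bases in a global alignment (85.2%), whereas other pairs among Cma1, Cpa3, Mcpt1, Mcpt4 and Mcpt8 shared 55.2% to 65.6%. The differences between p53 on and p53 off of that pair were 1.49 for Mcpt4 and 0.16 for Mcpt1. Any part of promoter sequence in this was not tested. No promoter window was at hand for Mcpt2, Tpsab1 and Tpsb2. A match is a description of these letters and does not show binding.

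The gaps between replicate arrays were wide for the mast cell genes. In p53 on the median gap between the replicates was 0.82 for the 10 genes, against 0.10 over all genes, and in p53 off it was 0.49, against 0.088. Cma1 differed by 1.11 between the p53 on arrays and by 1.12 between the p53 off arrays, wider than 99.6% and 99.9% of all genes. Gata2, Hdc and Ms4a2 had gaps of 0.14 or less in both groups. Gaps of 0.5 or more in both groups, of either sign, were seen in 5 of the 10 and in 0.330% of all genes. The gaps mostly ran the same way. In 8 of 10 genes p53 on replicate 2 was above replicate 1 and p53 off replicate 1 was above replicate 2. Of all genes, 32.0% had this direction. It is the direction of most of the 10 genes themselves, so counts that use it are a description. The gap was 0.5 or more in both groups, in that direction, for 5 of the 10 (Tpsab1, Tpsb2, Cma1, Cpa3 and Fcer1a), and for 0.121% of all genes, 22 in number. Named after their values were seen, 3 of the other 17 were the granzyme genes Gzmb, Gzmf and Gzmg of the chymase locus. Groups overlapped in these 3. Another of the 17, the granzyme gene Gzma, had gaps of 1.47 in p53 on and 0.61 in p53 off. It was higher in p53 on by 2.55, and its groups did not overlap. The rest of the 17 were Arg2, Chil3, Fcrla, Ibsp, Mmp3, Npy, Slc45a3, Slfn1, Slfn4, Slpi, Smim4, Tap1 and Tchh. Gzmb, which mast cells share with cytotoxic lymphocytes, had 9.67 and 10.55 in p53 on and 9.74 and 9.20 in p53 off, so its groups overlapped. Mcpt2 shared the gap in p53 off (1.34) but had 0.29 in p53 on, and Mcpt1 had 0.15 in p53 on and 0.33 in p53 off.

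**Figure D3:**
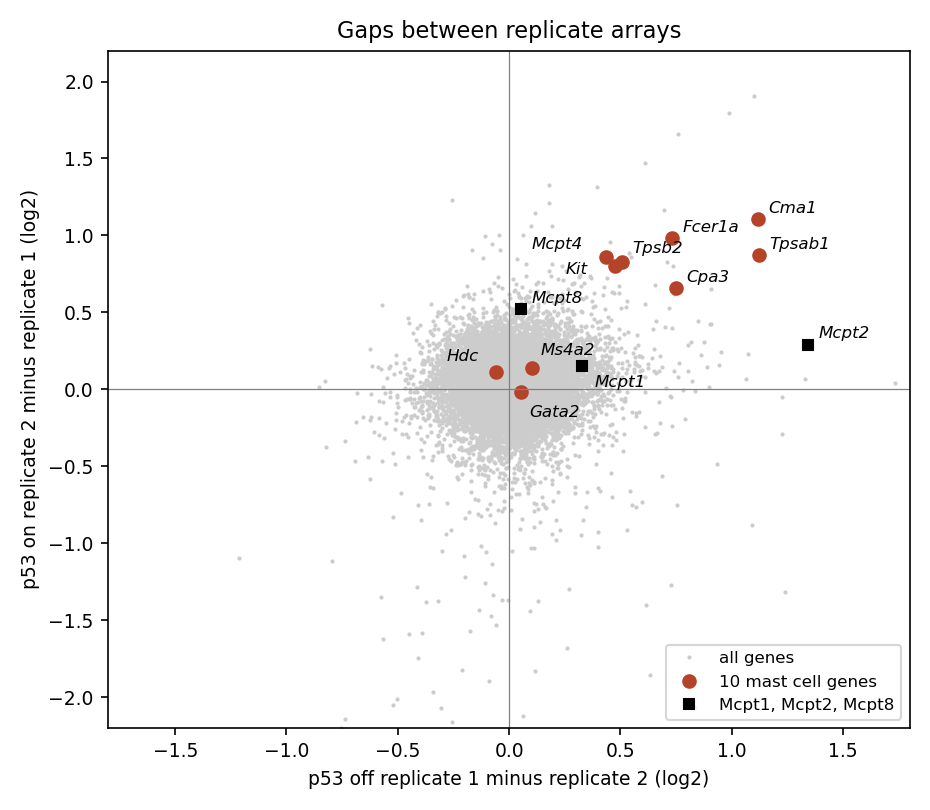
Gaps between replicate arrays (log2) for all genes (grey), the 10 mast cell genes (circles) and Mcpt1, Mcpt2 and Mcpt8 (squares), with p53 off replicate 1 minus replicate 2 on the horizontal axis and p53 on replicate 2 minus replicate 1 on the vertical axis. The 5 proteases, Kit and Fcer1a lie at the upper right, while Gata2, Hdc and Ms4a2 lie in the cloud; 23 genes fall outside the plotted range.

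Other genes of the mast cell programme were counted over 5 lists, in which 68 of 75 listed genes were measured. Of these, 33 rose and 4 fell in p53 on, beside 14.0% and 14.7% of all genes, and 31 did not pass. The same shares of all genes are the background for the count of each list and marker set below. Fewer rose when either p53 off array was left out, and fewer of all genes did too. The 14.0% is thus not the background of those fits. The genes of the 5 lists are less selective than the proteases, since many are made by macrophages and other leukocytes or by endothelium. Of 8 macrophage markers 4 rose, with a summed signal (log2 of the sum) of 14.19 and 13.95 in p53 on, against 13.24 and 13.31 in p53 off. Their resident-type markers Marco and Clec4f were within the olfactory range. Of 9 endothelial markers 7 rose, with a summed signal of 13.20 and 13.38 in p53 on and 12.66 and 12.67 in p53 off, and Tie1 was within the olfactory range. All 8 fibroblast markers rose, with 16.48 and 16.49 in p53 on and 15.72 and 15.53 in p53 off. Their part in the changes of the 5 lists was not tested. In bulk tumors, more cells of a type and more RNA per cell cannot be told apart.

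Among transcription factors, Mitf, which mast cells need for protease expression, rose to 10.70 and 11.02 in p53 on, against 8.70 and 8.31 in p53 off. The difference was 2.35 ± 0.17 (5.10-fold; limma adjusted p = 0.00089), and its dimmer probe set, within the olfactory range, differed by 0.48. Mitf is also made by macrophages and melanocytes. Of 6 melanocyte markers 1 rose (Dct, within the olfactory range), and Tyr, Tyrp1 and Mlana were within that range as well. Ikzf1 rose by 1.11 ± 0.096 and Zeb2 by 0.90 ± 0.11, both broad regulators of blood cells. With the mean of each gene's probe sets, Mitf was at 1.41, Ikzf1 at 0.58 and Zfpm1 at -0.57. Zfpm1, which encodes the GATA partner FOG-1, known in mice to restrain mast cell fate, fell to 7.73 and 7.84 in p53 on, against 8.58 and 8.74 in p53 off (-0.88 ± 0.092; limma adjusted p = 0.00234). In all, 7 of 12 measured factors rose and 1 fell, beside 14.0% and 14.7% of all genes, with a median of 0.42.

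Growth factors and attractants moved in both directions. Kitl, the ligand of Kit known as stem cell factor, fell to 10.83 and 10.51 in p53 on, against 11.56 and 11.53 in p53 off, a difference of -0.87 ± 0.12 (limma adjusted p = 0.0053). Of its other 3 probe sets, the differences were -0.85, -0.80 and 0.014. Kit and its ligand were thus on opposite sides, at 1.29 and -0.87. Il33, an alarmin that activates mast cells, rose to 11.71 and 11.76 in p53 on, against 10.35 and 10.32 in p53 off (1.40 ± 0.072; limma adjusted p = 0.00048). The eosinophil attractant Ccl11 rose by 1.17 ± 0.17. Ccl2, which attracts monocytes and mast cell precursors, was called at 1.03 ± 0.26 (limma adjusted p = 0.0358), a call lost without p53 off replicate 1 (0.0505), without p53 off replicate 2 (0.177) and with the replicate block (0.0786), in a range of 0.00453 to 0.177. The cytokines Il3, Il4 and Il9, which T cells and basophils make to feed mast cells, were within the olfactory range and did not pass. Of 12 measured genes 4 rose and 1 fell, beside 14.0% and 14.7% of all genes, with a median of 0.59.

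In the IgE receptor and Kit signalling list 10 of 19 measured genes rose and 0 fell, beside 14.0% and 14.7% of all genes. The median was 0.31. Fcer1g, the shared signalling chain of the IgE receptor and of IgG receptors on macrophages, had 12.31 and 12.42 in p53 on, against 11.78 and 11.52 in p53 off (0.71 ± 0.11; limma adjusted p = 0.00807). The adaptor gene Lcp2 (SLP-76) rose by 1.30 ± 0.095 and Sh2b3 (LNK), which dampens Kit signalling, by 1.06 ± 0.072. Inpp5d, encoding the phosphatase SHIP1 that limits mast cell degranulation, rose by 0.94 ± 0.073 and the kinase gene Fyn by 0.77 ± 0.09. With the mean of each gene's probe sets, Sh2b3 was at 0.67 and Inpp5d at 0.53. Activating and inhibiting genes were both among those that rose. These are genes of most leukocytes. Of the 8 macrophage markers given above 4 rose, and any part of macrophages in the changes of this list was not tested.

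Granule, lipid mediator and secretion genes split, with 8 of 16 higher and 2 lower, beside 14.0% and 14.7% of all genes. The median was 0.34. Srgn, the proteoglycan core that holds proteases in the granule, had 12.89 and 13.02 in p53 on and 13.13 and 12.95 in p53 off, overlapping groups (-0.081 ± 0.097; limma adjusted p = 0.591; 95% interval -0.32 to 0.16). Alox5ap, which serves leukotriene synthesis, rose by 1.30 ± 0.15. Tph1, the serotonin-making enzyme of mast cells, was called at 0.98 ± 0.18 within the olfactory range (limma adjusted p = 0.0123), and was lost without p53 off replicate 2 (0.081; range 0.00188 to 0.081). Lyst, a granule size regulator, was called at 0.65 ± 0.17 (limma adjusted p = 0.0394), and was lost without p53 off replicate 1 (0.117) and replicate 2 (0.183), with the replicate block (0.0589), with the crossed block (0.0524) and with the mean of its probe sets (0.113, at 0.25), in a range of 0.00186 to 0.183. Rab27b, a small GTPase of granule exocytosis in mast cells and epithelium, fell to 8.35 and 8.16 in p53 on, against 9.86 and 9.96 in p53 off (-1.66 ± 0.096). The mean of its probe sets was at -0.85. Of 7 measured tumor epithelium markers 4 fell as well (Krt8, Krt18, Krt19 and Sox9), Epcam rose (0.52 ± 0.072; limma adjusted p = 0.0053), and Alb and Afp did not pass. Afp had 8.47 and 5.33 in p53 on, against 9.16 and 9.15 in p53 off. The part of these markers in the fall of Rab27b was not tested.

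Among other mast cell receptors 4 of 9 measured genes rose and 0 fell, beside 14.0% and 14.7% of all genes. The median was 0.24. Cd34, shared by mast cells, blood progenitors and endothelium, rose by 1.23 ± 0.079. The complement receptor gene C5ar1 rose by 0.57 ± 0.091, a call lost without p53 off replicate 2 (limma adjusted p = 0.0597) and with the mean of its probe sets (0.055), in a range of 0.00399 to 0.0597. Mrgprb1, a receptor gene of connective tissue mast cells, was called at 0.45 ± 0.10 at the dimmest end of the arrays, with 5.66 and 5.85 in p53 on and 5.38 and 5.24 in p53 off. That call (limma adjusted p = 0.0238) was lost without p53 off replicate 1 (0.063), p53 off replicate 2 (0.148) and p53 on replicate 2 (0.0557) and with the replicate block (0.0573), in a range of 0.00953 to 0.148. The leukotriene receptor gene Cysltr1 stood at the threshold (0.42 ± 0.12; limma adjusted p = 0.04996), and 8 of 14 alternatives put it above 0.05 (range 0.0138 to 0.247). Tpsg1, the membrane tryptase, did not pass (-0.027 ± 0.086; limma adjusted p = 0.856) and was within the olfactory range, where a change could hardly be seen.

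**Figure D4:**
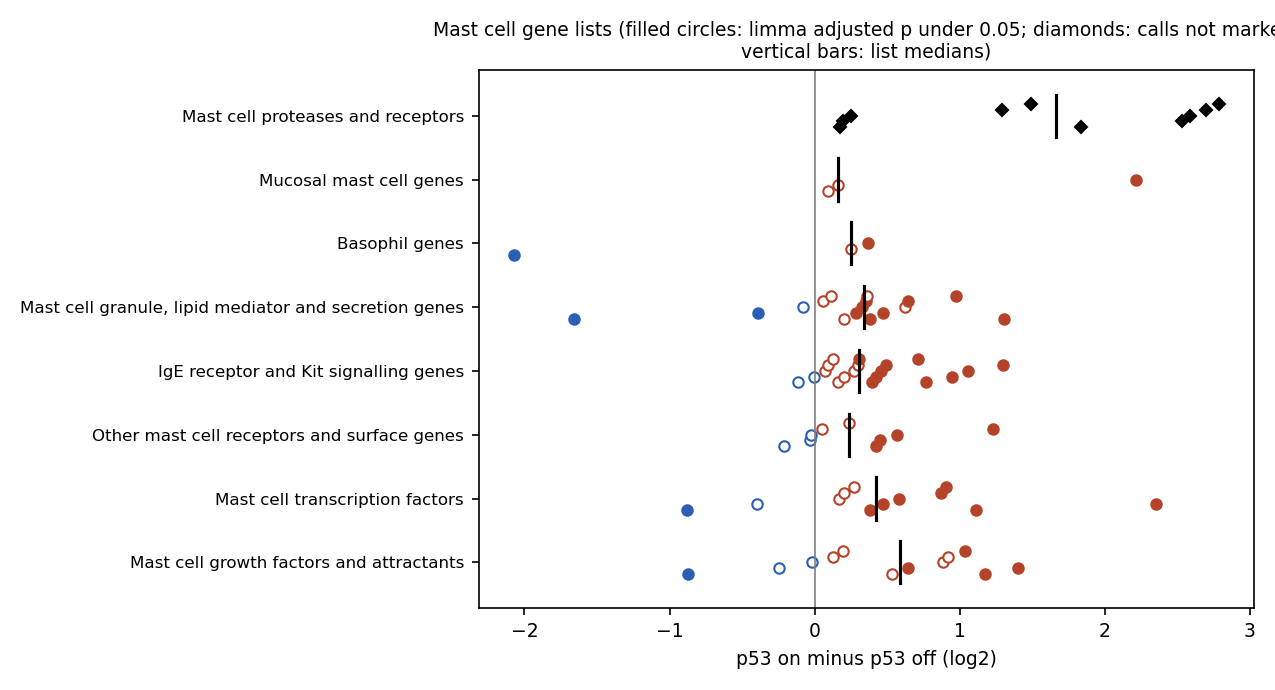
Difference between p53 on and p53 off (log2, horizontal axis) of each measured gene in the mast cell gene lists, with filled circles for limma adjusted p under 0.05, diamonds for the 10 mast cell genes, whose calls are not marked, and a vertical bar at each list's median. The 10 genes have a median of 1.66 and the other lists medians between 0.16 and 0.59, with Mcpt8, Rab27b, Zfpm1 and Kitl as the lowest points of their lists.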

How the data were processed

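RNA of 4 mouse liver tumor samples (2 p53 on, 2 p53 off) had been extracted with Trizol, amplified, biotin-labelled and hybridized to Affymetrix 430 2.0 arrays, per the labels' protocols. The deposited table holds log2 values that the authors made with RMA, per the submitters' processing notes. Those notes list limma 3.14.4 too. Build and annotation: not given in the sources used here. Of 45101 probe sets, 34945 had exactly 1 gene symbol in the platform annotation, 932 had several and 9160 none, and 64 were controls. For each of 18193 genes the brightest probe set on average was used. The difference, p53 on minus p53 off, came from limma 3.58.1 under R 4.3.3 (lmFit, then eBayes), with 2 residual and 5.47 moderated degrees of freedom. Benjamini-Hochberg adjustment ran over all genes, with 0.05 as threshold. No filter was used. A permutation test of 2 against 2 arrays cannot give a p under 0.333, so none was run. The number of arrays limits the precision.

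The members and lists were chosen with earlier results of these data known. Named were the 10 members, Mcpt1, Mcpt2, Mcpt8, Fcer1g, Kitl, Mitf and Srgn, and in each list up to 4 called genes with the largest difference, or that with the smallest p. Genes named outside this rule were chosen after their values were seen. Alternatives were a replicate block, quantile normalization, median centring, spike-in scaling, leaving out the dimmest 40% of genes, other choices of probe sets, trend and robust eBayes and leaving out each array. A crossed block was added after seeing the data. Promoters were searched and figures drawn with Python 3.11.15 and matplotlib 3.10.9.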

Additional observations from a re-analysis of the deposited data

How the results depend on the processing

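Over 14 alternatives, the values that moved most follow. The median difference of the 10 mast cell genes lay between 1.20 and 2.12 when single arrays were left out and was 2.53 with dim genes left out, which removes Kit, Ms4a2 and Fcer1a. Their count past the threshold was 3 to 7 without single arrays, 5 with trend and robust eBayes or with dim genes left out, and 9 with spike-in scaling or the mean of probe sets. Ms4a2 lay between 0.12 and 0.34, Hdc between 0.10 and 0.33 and Gata2 between 0.17 and 0.39. Tpsb2 was at 1.34 and Kit at 0.64 with the mean of their probe sets, and Tpsb2 at 0.10 with its dim second probe set, the 1 without a suffix (_a, _s or _x) in its name. The _a suffix marks transcripts of the same gene, so 0.10 is not a value freed of cross-hybridization. Over all genes 2550 were higher and 2673 lower (48.8% higher). Without single arrays 1093 to 2573 were higher and 1135 to 2711 lower, the lowest without p53 off replicate 2. With spike-in scaling 4391 were higher (70.4% of calls), and the median of all genes was 0.16 instead of 0.023, beside a median of 1.798 for the mast cell genes. With arrays centred on their medians the share was 37.9%. Pathway genes called higher numbered 13 to 36 without single arrays. Mucosal genes called higher numbered 0 with trend and robust eBayes. Mcpt1 lay between -0.0016 and 0.33 without single arrays, below 0 only without p53 off replicate 2. Srgn lay between -0.17 and 0.0060 without single arrays, above 0 only without p53 off replicate 1, and was at 0.056 with spike-in scaling. These reversals are of values that were not called, and their cause was not tested. Same-numbered arrays deviated in opposite ways across genes (r = -0.15), so the replicate numbers were not taken as pairs. With the replicate block 6 mast cell genes lay past the threshold and with the crossed block 7. Dim signals limit Ms4a2, Hdc, Fcer1a, both probe sets of Kit and the second probe set of Tpsb2.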
